A study of Mus musculus with 4 samples.

Results

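The Gimap genes (GTPases of the immunity-associated protein family) were followed in liver mononuclear cells of mice with concanavalin A hepatitis. The members were the 8 genes Gimap1, Gimap3, Gimap4, Gimap5, Gimap6, Gimap7, Gimap8 and Gimap9, taken by symbol from the 31053 genes of the count tables. All 8 had counts in all 4 libraries, and no other gene symbol there began with Gimap. Concanavalin A (ConA), a lectin of jack beans, activates T cells and inflames the liver. TCDD, a dioxin, and FICZ, a tryptophan product, are ligands of the aryl hydrocarbon receptor (AhR), a transcription factor held in the cytoplasm until a ligand binds.

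All mice were C57BL/6 and 8 to 10 weeks old. The groups were mice labelled naive (Naïve) and mice given ConA and then vehicle (ConA+Veh), TCDD (ConA+TCDD) or FICZ (ConA+FICZ). The ConA-treated livers were taken 24 hours after ConA. Each group was 1 library, and the number of mice behind a library is not stated in the sources used here. The spread between animals could therefore not be measured, and no test between groups was made. Intervals given in brackets are 95% counting intervals, which cover the error of counting molecules only.

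Where 4 values are given together they are in the order Naïve, ConA+Veh, ConA+TCDD, ConA+FICZ. The libraries held 2086, 2779, 1880 and 2555 cells, with median counts of 2161, 3984, 3761.5 and 3147 unique molecular identifiers (UMIs) per cell. A UMI marks 1 captured RNA molecule. Between 16 and 29 cell barcodes of each library also occurred in another library. Cells were assigned to classes by UMIs of marker genes, so that a class is a gate and not a cluster. T cells were gated on Cd3d, Cd3e and Cd3g, B cells on a marker list with Cd79a, Cd79b and Ms4a1, and natural killer (NK) cells on Ncr1, Klre1, Klrb1c and Klra8 without Cd3d or Cd3e. There were 483, 761, 621 and 519 T cells, 119, 203, 156 and 159 NK cells, and 1061, 694, 321 and 727 B cells. Levels are given as CPM, the UMIs of a gene per 1000000 UMIs of all cells of the class.

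The Gimap proteins bind guanine nucleotides and sit on intracellular membranes such as the endoplasmic reticulum, lysosomes and mitochondria. The family is best known from lymphocytes. Gimap5 is needed for the survival of peripheral T cells and other lymphocytes, and its loss causes lymphopenia in rats and mice. Gimap1 is needed for mature T and B cells, Gimap6 has been linked to autophagy, Gimap4 to the rate of T cell death, and Gimap3 is the close relative of Gimap5 on mitochondria. Gimap8 carries several GTP-binding domains, and the roles of Gimap7 and Gimap9 in the mouse are less well known.

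The 8 genes form 1 cluster on mouse chromosome 6. In the GRCm38 annotation (the build called mm10) it spans chr6:48647234-48770851, or 123.6 kb, and all 8 are protein-coding genes. In order along the chromosome they are Gimap8 (ENSMUSG00000064262), Gimap9 (ENSMUSG00000051124), Gimap4 (ENSMUSG00000054435), Gimap6 (ENSMUSG00000047867), Gimap7 (ENSMUSG00000043931), Gimap1 (ENSMUSG00000090019), Gimap5 (ENSMUSG00000043505) and Gimap3 (ENSMUSG00000039264). Gimap6 and Gimap3 lie on the minus strand and the other 6 on the plus strand. Gimap5, the member that the results turn on most, lies at chr6:48746197-48754210.

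Annotation overlap limits how well some members can be told apart. A read-through gene, Gm28053, shares 153 exon bases with Gimap5 and 81 with Gimap7. It also overlaps exons of Gimap1, as does the antisense gene Gimap1os. The overlap of Gimap1, summed over both genes, is 1305 bases, the largest of any member. Gm28053 had only 44, 67, 44 and 53 UMIs in the T, NK and B cells, beside 9536, 17132, 11408 and 16226 UMIs of the family. Among the annotated transcripts, Gimap3 and Gimap5 share 190 stretches of 50 letters, which are 7.52% of those of Gimap3 and 9.98% of those of Gimap5. No other pair of members shares any. Reads from these stretches cannot be placed on 1 gene.

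The start regions of 3 members are shown, since Gimap5 differed from the other members under TCDD and since Gimap1 and Gimap9 are the members whose start region holds the AhR core letters GCGTG. Each is the RefSeq window of 250 bases before and 50 after an annotated start (GRCm38.p6, plus strand for all 3). The capitals mark matches, on either strand, to GCGTG (AhR), TGTGGT (RUNX), GGGTG (KLF), CTTTGA (TCF/LEF) or CCGGAA (ETS).
Gimap5, chr6:48745947-48746246: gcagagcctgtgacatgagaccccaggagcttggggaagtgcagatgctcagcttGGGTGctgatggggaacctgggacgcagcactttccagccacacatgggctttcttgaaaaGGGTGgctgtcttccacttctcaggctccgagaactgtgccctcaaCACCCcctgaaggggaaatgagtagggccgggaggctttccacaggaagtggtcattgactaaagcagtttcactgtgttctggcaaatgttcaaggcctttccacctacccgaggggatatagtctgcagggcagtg
Gimap1, chr6:48738797-48739096: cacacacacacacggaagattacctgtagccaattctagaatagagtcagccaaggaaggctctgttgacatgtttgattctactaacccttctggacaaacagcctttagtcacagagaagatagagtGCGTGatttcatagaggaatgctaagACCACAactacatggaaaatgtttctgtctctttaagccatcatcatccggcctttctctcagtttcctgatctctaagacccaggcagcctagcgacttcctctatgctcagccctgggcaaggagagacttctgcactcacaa
Gimap9, chr6:48675885-48676184: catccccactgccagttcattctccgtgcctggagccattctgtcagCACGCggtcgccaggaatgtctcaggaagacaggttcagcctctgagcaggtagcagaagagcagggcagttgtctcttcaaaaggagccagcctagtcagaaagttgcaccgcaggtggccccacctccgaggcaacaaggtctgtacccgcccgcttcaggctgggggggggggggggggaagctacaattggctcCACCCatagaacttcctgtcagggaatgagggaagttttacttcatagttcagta
The AhR letters occur in 32.4% of the 32851 mouse windows of the same kind, so that 2 of 8 members with them is not a high number. The KLF letters occur in 57.5% of all windows and in those of 5 members, Gimap3, Gimap4, Gimap5, Gimap8 and Gimap9. The RUNX letters, in 16.8% of windows, occur for Gimap1, Gimap4 and Gimap7, and the TCF/LEF letters, in 16%, for Gimap4 and Gimap7. The ETS letters occur in 14.9% of windows and in those of no member. A match is a match of letters and not a measured binding site.

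The family was detected in most T, NK and B cells and was low in mononuclear phagocytes. The summed level of the 8 genes was 2579, 1325, 1314 and 1504 CPM in T cells. The sum was 3177, 2590, 2798 and 3167 CPM in NK cells and 1644, 1250, 1165 and 1367 CPM in B cells. In mononuclear phagocytes, by contrast, it was 37.7, 45, 40.6 and 15 CPM. NK cells were thus the highest of the lymphocyte gates in each library. After every cell had been thinned to 1000 UMIs, 90.9%, 76.1%, 69.1% and 78.8% of T cells held a UMI of at least 1 member, against 1.28%, 4.78%, 5.80% and 0.917% of phagocytes. The level of free RNA in the droplets was not measured. The share of thinned cells was 97.9%, 94.6%, 95.1% and 93.7% in NK cells and 78.8%, 71.0%, 69.1% and 74.8% in B cells. Without thinning, the T cell shares were 98.1%, 97.2%, 97.7% and 98.7%, close to all cells. A thinned T cell held a median of 2 different members in Naïve and of 1 in each of the 3 ConA libraries, and the most members found in 1 thinned T cell was 6.

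**Figure D1:**
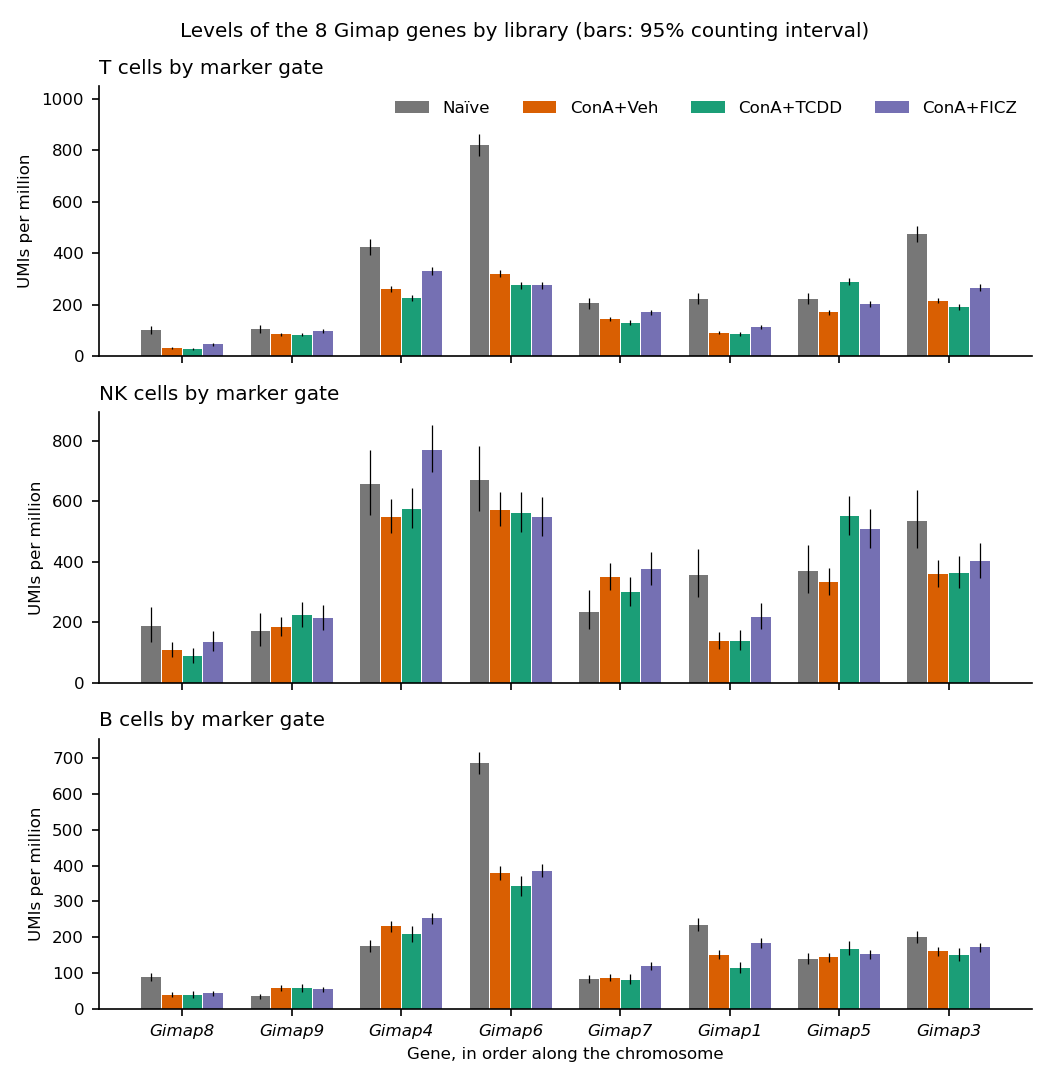
Level of each Gimap gene (CPM, vertical axis) in T, NK and B cells of the 4 libraries, with genes in chromosome order and black lines for the 95% counting interval. In T cells the Naïve bar is the highest for 7 genes, and Gimap5 is the exception, with its highest bar of 290 CPM in ConA+TCDD.

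The T, NK and B cells used the members in different proportions. Gimap6 was the largest part of the family in B cells, with 41.7% of the family's UMIs in Naïve and 28.2% to 30.3% in the ConA libraries. In NK cells Gimap4 held 20.5% to 24.3% and Gimap6 17.3% to 22.1%. Gimap3 held 12.2% to 13.0% in B cells and 14.7% to 18.4% in T cells. The clearest difference was in the cells gated as endothelial (45, 73, 16 and 48 cells). Their summed level was 1196, 509, 164 and 605 CPM, yet Gimap3 and Gimap7 made up at most 1.2% and 0.8% of it, against at least 14.7% and 8.0% in T cells. Gimap4 and Gimap6 dominated there, with 28.0% to 34.3% and 25.3% to 38.1%. In CPM, Gimap3 and Gimap7 were at most at 6.01 and 5.92 in this gate in any library.

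**Figure D2:**
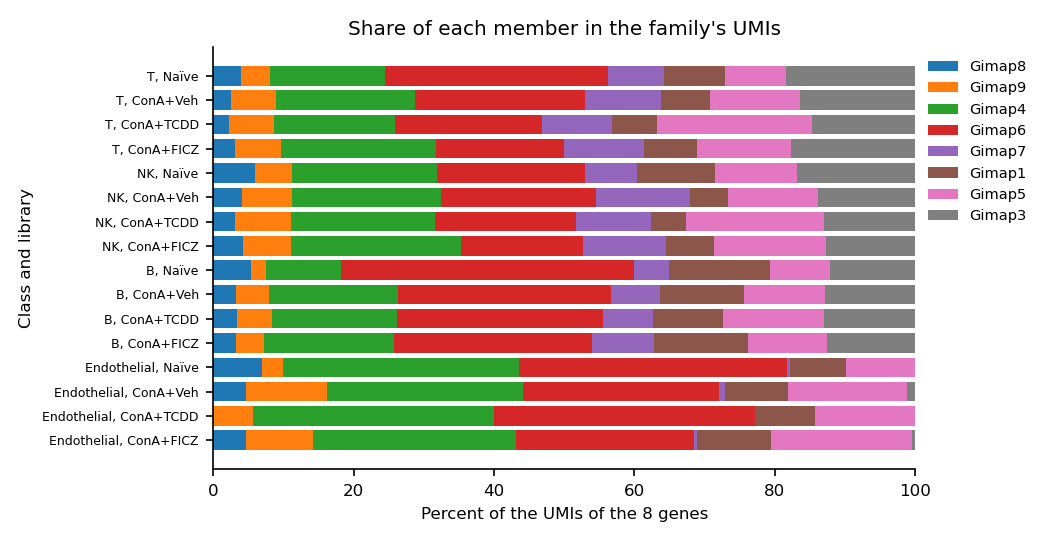
Share of each member in the UMIs of the 8 genes (horizontal axis, percent) for T, NK, B and endothelial gates in each library. Gimap3 and Gimap7 are near 0 in the endothelial bars, and the Gimap5 segment of T cells is widest in ConA+TCDD, at 22.1%.

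The T cell subsets differed in the summed level within a library. NKT-type cells, T cells with Zbtb16 or Klrb1c and without CD8 genes, had the highest sum of the T subsets with at least 20 cells in 3 libraries, at 3539 CPM for Naïve, 1995 CPM for ConA+Veh and 1808 CPM for ConA+TCDD. In ConA+FICZ they had 2286 CPM, just below the 2408 CPM of 25 gamma delta T cells. Cycling CD8 T cells, with at least 2 UMIs of Mki67 or Top2a, had the lowest sums after ConA, at 1134 CPM for vehicle, 1062 CPM for TCDD and 1187 CPM for FICZ. Their level was lower than that of the other CD8 T cells that were not naive-type by log2 ratios of -0.34 (-0.45 to -0.24), -0.57 (-0.68 to -0.46) and -0.36 (-0.46 to -0.26). There were only 4 such cells in Naïve, so that no ratio is given for it.

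Naive-type CD8 T cells (at least 2 UMIs of a marker list with Ccr7 and Lef1, and none of Mki67, Top2a or Gzmb) were compared with all remaining CD8 T cells. In Naïve the log2 ratio of the sum was -0.06 (-0.22 to 0.11). It was 0.37 (0.22 to 0.51) in ConA+Veh, 0.20 (0.02 to 0.37) in ConA+TCDD and 0.27 (0.14 to 0.40) in ConA+FICZ. When the cells were gated after thinning to 1000 UMIs, the ratio in ConA+FICZ was -0.39, the opposite direction, and as mean UMI per cell all 4 ratios were below 0. The CPM difference after ConA came with the cycling cells. Against the CD8 T cells that neither cycled nor were naive-type, the ratio was 0.08 (-0.09 to 0.24), -0.22 (-0.41 to -0.03) and 0.01 (-0.13 to 0.16). The members did not move as a block in this contrast. In Naïve, Gimap6 was at 795 CPM in naive-type and 469 CPM in the other non-cycling CD8 T cells, whereas Gimap4 was at 187 and 469 CPM and Gimap7 at 64.1 and 215 CPM.

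**Figure D3:**
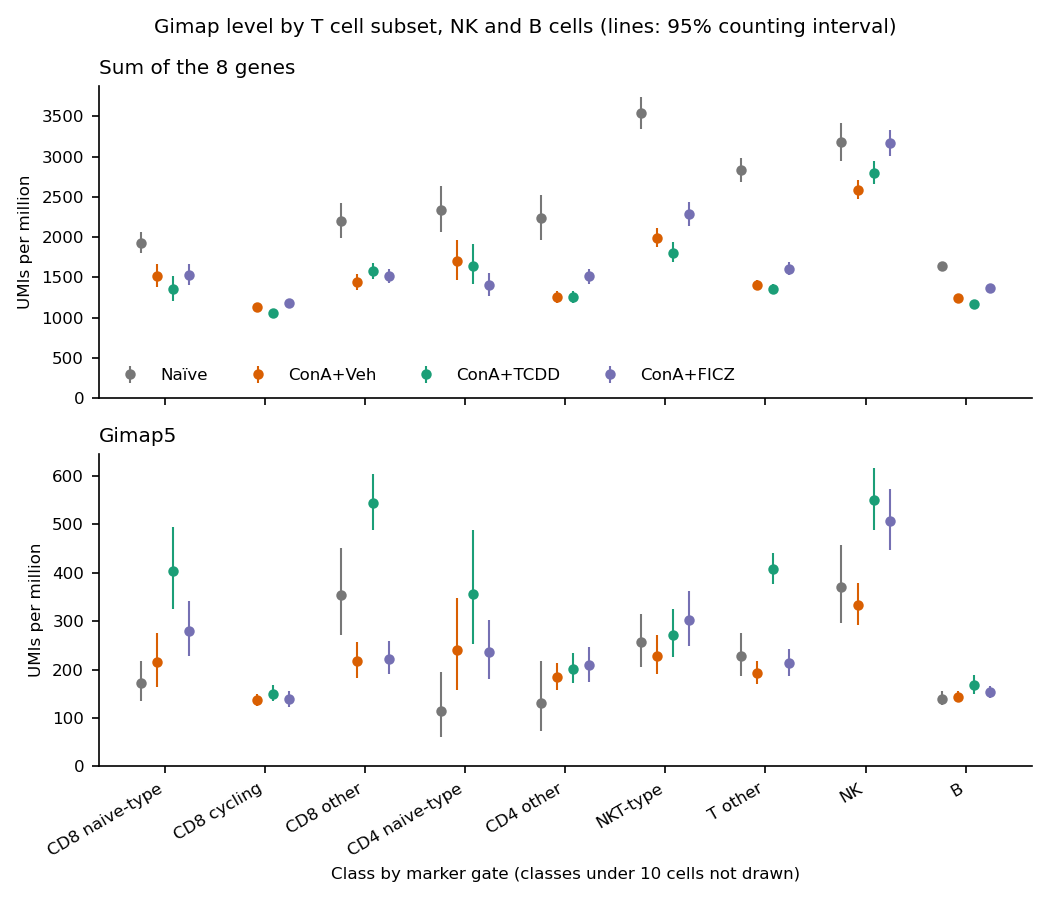
Summed Gimap level (upper panel) and Gimap5 level (lower panel), both in CPM, in T cell subsets, NK and B cells, with 1 point per library and lines for the 95% counting interval. The Naïve point is the highest of the sum in every T subset where it is drawn, and in the lower panel the ConA+TCDD point stands at 543 CPM in the CD8 other subset and at 408 CPM in the T other subset.

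ConA+Veh was then set against Naïve. In T cells all 8 members took a smaller part of the RNA after ConA. The summed log2 ratio was -0.96 (-1.01 to -0.91), and the median over the 8539 genes that had 50 or more UMIs across both libraries was -0.12. Gimap8, Gimap6, Gimap1 and Gimap3 were at least 2-fold lower, a call met by 12.7% of all genes. Gimap8 went from 101 to 33 CPM, a log2 ratio of -1.62 (-1.90 to -1.34). Gimap6, the most abundant member in naive T cells, went from 819 to 321 CPM, a log2 ratio of -1.35 (-1.44 to -1.26). Gimap1 went from 224 to 92.3 CPM and Gimap3 from 474 to 217 CPM. The smallest differences were those of Gimap9, from 107 to 85.1 CPM with -0.33 (-0.57 to -0.09), and of Gimap5, from 223 to 171 CPM with -0.39 (-0.55 to -0.22).

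This difference was one in the share of RNA, and the UMIs counted per cell, which are not corrected for depth, went the other way. The median T cell held 2750 UMIs in Naïve and 6915 in ConA+Veh, and the UMIs of the family per T cell were 9.32 in Naïve and 13.8 in ConA+Veh. Counted as mean UMI per cell, the summed log2 ratio was 0.57 in T cells, 0.53 in NK cells and 0.77 in B cells, the opposite direction. On this scale cells with more UMIs count more by construction. Whether the ConA cells held more RNA or were read more deeply was not tested. The T cell gate also changed its makeup, with 4 cycling CD8 T cells in Naïve and 253 in ConA+Veh. Within subsets the CPM ratio of the sum stayed below 0, at -0.35 (-0.52 to -0.18) in naive-type CD8, -0.61 (-0.79 to -0.44) in other CD8, -0.83 (-1.03 to -0.63) in CD4 T cells that were not naive-type and -0.83 (-0.95 to -0.71) in NKT-type cells. In other CD8 T cells 0 of 7 measured members were at least 2-fold lower, against 5.12% of all genes. In CD4 T cells that were not naive-type 2 of 7 were (Gimap1 and Gimap3), against 8.72%. In T cells without a subset call 3 of 8 were (Gimap8, Gimap6 and Gimap1), against 11.1%. In NKT-type cells Gimap1, Gimap3, Gimap6 and Gimap8 were. They had 113, 254, 296 and 44 of 347259 UMIs in Naïve and 79, 190, 225 and 35 of 559466 in ConA+Veh. In naive-type CD8 T cells Gimap1 was, with 82 of 421460 and 20 of 288641 UMIs, and Gimap8, with 37 and 11. The share of all genes was not computed for NKT-type or naive-type CD8 T cells. Fewer molecules of a gene and more RNA of other genes cannot be told apart in CPM.

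In NK and B cells the sum differed less, at -0.30 (-0.42 to -0.17) and -0.39 (-0.45 to -0.34). Of the members in NK cells 1 was at least 2-fold lower, against 8.55% of all genes, and this was Gimap1, at 356 CPM in Naïve and 138 CPM in ConA+Veh. Of the members in B cells 1 was at least 2-fold lower, against 16.3% of all genes, and this was Gimap8, at 88.2 and 39.9 CPM. Other members were higher after ConA. Gimap4 in B cells was at 176 and 231 CPM, a log2 ratio of 0.39 (0.23 to 0.56), Gimap9 in B cells was at 35.1 and 58.6 CPM with 0.74 (0.38 to 1.10), and Gimap7 in NK cells was at 235 and 349 CPM with 0.57 (0.14 to 1.02). Gimap1, Gimap3, Gimap6 and Gimap8 had ratios below 0 in all 3 lymphocyte gates, although the interval of Gimap6 in NK cells, -0.23 (-0.50 to 0.05), included 0. Gimap4, Gimap5, Gimap7 and Gimap9 had a ratio above 0 in at least 1 of the B and NK gates, and for Gimap5 that was 0.04 (-0.16 to 0.23) in B cells.

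Genes known from quiescent lymphocytes were lower as well in T cells of ConA+Veh. Of 13 such genes 8 were at least 2-fold lower in T cells, against the 12.7% of all genes given above (Il7r, Klf2, S1pr1, Pik3ip1, Txnip, Bcl2, Btg1 and Dapl1), all 13 ratios were below 0, and their median log2 ratio was -1.60. Il7r, the receptor for the survival cytokine IL-7, was at 378 CPM in Naïve and 38.1 CPM in ConA+Veh, and Klf2, a transcription factor of resting T cells, at 920 and 127 CPM. Of 14 activation genes 8 were at least 2-fold higher, against 8.99% of all genes, among them the cytokine receptor chain Il2ra at 35.0 and 99.8 CPM, and Ifng and Cd44 were at least 2-fold lower. In the CD8 T cells that neither cycled nor were naive-type, none of the 8 measured activation genes was at least 2-fold higher, where 5.85% of all genes were, and Myc and Nme1 were at least 2-fold lower, where 5.12% were. In these CD8 T cells 3 of 10 measured quiescence genes were at least 2-fold lower and 1, Foxo1, higher, beside the same 5.12% and 5.85%. Of 10 activation genes in CD4 T cells that were not naive-type, 5 were at least 2-fold higher and 1 lower, against 18.6% and 8.72%. Of 13 in T cells without a subset call, 7 were higher and 2 lower, against 8.52% and 11.1%. Of the quiescence genes 6 of 11 and 9 of 13 were at least 2-fold lower in these 2 subsets, against 8.72% and 11.1%. The quiescence list had 8 of 10 measured genes at least 2-fold lower in B cells, against 16.3% of all genes, and 2 of 8 in NK cells, against 8.55%. Of 8 measured activation genes in B cells 2 were at least 2-fold higher and 2 lower, against 6.42% and 16.3%. Of 7 in NK cells 0 were higher and 1, Ifng, lower, against 9.38% and 8.55%.

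**Figure D4:**
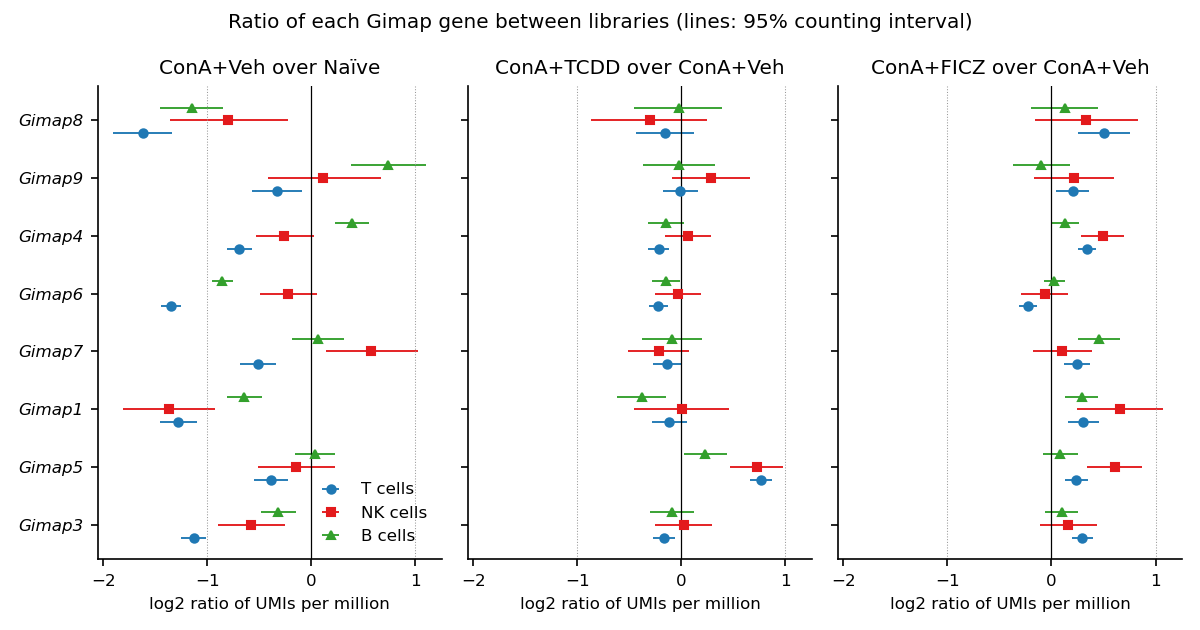
Log2 ratio of each member between libraries (horizontal axis) in T, NK and B cells for the 3 comparisons, with lines for the 95% counting interval and dotted lines at a 2-fold difference. After ConA all 8 T cell points lie left of 0, and in the middle panel the Gimap5 points of T and NK cells, at 0.76 and 0.72, lie apart from the other members.

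ConA+TCDD was compared with ConA+Veh to ask what TCDD changes in the inflamed liver. The summed level hardly differed, with log2 ratios of -0.01 (-0.05 to 0.03) in T cells, 0.11 (0.01 to 0.21) in NK cells and -0.10 (-0.18 to -0.03) in B cells. Gimap5 was the exception. In T cells it was at 223 CPM in Naïve, 171 in ConA+Veh, 290 in ConA+TCDD and 202 in ConA+FICZ, and the ConA+TCDD interval of 277 to 304 CPM overlapped that of no other library. The log2 ratio to ConA+Veh was 0.76 (0.66 to 0.87). In NK cells Gimap5 was at 370, 333, 550 and 507 CPM, with a ratio of 0.72 (0.47 to 0.98), and here ConA+FICZ was about as high as ConA+TCDD. In B cells it was at 140, 144, 169 and 153 CPM, with a ratio of 0.23 (0.02 to 0.43). The shift was not limited to lymphocytes. In mononuclear phagocytes, where the family was low, Gimap5 had 12 of 117 family UMIs in ConA+Veh and 23 of 45 in ConA+TCDD. Gimap4 had 28 and 1 of them. In the endothelial gate Gimap5 had 43 of 254 and 5 of 35, not a larger part. The source of the phagocyte UMIs was not tested. The other 7 members in T cells had log2 ratios between -0.22 and -0.01.

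None of the 8 members reached a 2-fold difference in T, NK or B cells in this comparison, and few genes did. At least 2-fold higher were 0.525% of all genes in T cells, 0.478% in NK cells and 0.626% in B cells. At least 2-fold lower were 0.971% in T cells, 1.21% in NK cells and 1.56% in B cells. Gimap5 was at least 2-fold higher in 2 T cell subsets. In CD8 T cells that neither cycled nor were naive-type it was at 217 CPM in ConA+Veh and 543 CPM in ConA+TCDD, which gave 1.33 (1.03 to 1.62) on the log2 scale, where 2.94% of all genes were at least 2-fold higher. In T cells without a CD4, CD8, regulatory, NKT-type or gamma delta call it was at 193 and 408 CPM, a ratio of 1.08 (0.87 to 1.29), where 1.42% of all genes were. In cycling CD8 T cells, however, Gimap5 was at 136 and 150 CPM, with 0.14 (-0.07 to 0.35), and in CD4 T cells that were not naive-type at 184 and 201 CPM, with 0.12 (-0.19 to 0.44). Gimap7 went the other way in the first of these subsets, from 163 to 69.5 CPM, a log2 ratio of -1.23 (-1.77 to -0.71), where 3.05% of all genes were at least 2-fold lower. In naive-type CD8 T cells (40 and 32 cells) Gimap1 was more than 2-fold lower. It had 20 of 288641 UMIs in ConA+Veh and 7 of 225993 in ConA+TCDD. These are too few for the set of genes behind the 2-fold shares. No counting interval is given for this Gimap1 ratio, so a difference beyond counting error is not shown. Gimap5 had 62 and 91 UMIs in this subset, higher by less than 2-fold. The share of all genes past 2-fold was not computed for this subset.

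The Gimap5 UMIs were unevenly spread over the T cells of ConA+TCDD. Of thinned T cells, 2.38%, 2.43%, 8.09% and 4.31% held at least 2 Gimap5 UMIs, and the highest number in 1 cell was 6 in ConA+TCDD and 3 in each of the others. The T cells of ConA+TCDD also differed in other genes, which were chosen after their values had been seen. T cells with at least 15 UMIs of Rbm3, a cold-inducible RNA-binding protein, per 10000 numbered 25 of 483, 6 of 761, 160 of 621 and 84 of 519. In ConA+TCDD, 90 of the 160 had no UMI of Cd52, a surface protein of lymphocytes, against 69 of the other 461. The 160 cells were also lower in the genes of the gate, with 744 CPM of Cd3d, Cd3e and Cd3g together against 1523 CPM, and higher in the 3 measured erythroid genes, with 133 against 36.3 CPM.

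In these 160 cells Gimap5 was at 773 CPM, and in the other 461 T cells of ConA+TCDD at 191 CPM, a log2 ratio of 2.02 (1.88 to 2.16). Gimap4 was at 85.5 and 254 CPM, with -1.57 (-1.90 to -1.26), and Gimap7 at 22.6 and 153 CPM, with -2.76 (-3.42 to -2.16). Gimap6 was at 279 and 275 CPM. The summed level was thus nearly the same, at 1424 and 1291 CPM, while its makeup was not. In ConA+FICZ the 84 Rbm3-rich T cells had Gimap5 at 222 CPM and the others at 195 CPM, and Gimap7 at 151 and 177 CPM. This makeup was thus not seen there, but the 84 cells also differed from the 160 in other ways. Only 6 of the 84 had no Cd52 UMI, and Cd52 was at 1222 CPM, against 141 CPM in the 160. The 3 Cd3 genes together were at 1204 CPM, against 744 CPM, and the median cell held 17737.5 UMIs, against 5733.5. Without the Rbm3-rich cells of both libraries the log2 ratio of Gimap5 in T cells, ConA+TCDD over ConA+Veh, was 0.16 (0.03 to 0.28) in place of 0.76, and in NK cells it was 0.45 (0.17 to 0.72) in place of 0.72. Most of the T cell difference therefore lay in the Rbm3-rich cells, 25.8% of the gate. With 1 library per group the treatment and the library cannot be told apart, and the part that the lower Cd3 and higher erythroid levels of these cells have in the result was not tested. In ConA+TCDD the 12 Rbm3-rich NK cells also had more Gimap5 than the other NK cells, at 1797 against 450 CPM. The 49 Rbm3-rich B cells had it at 286 against 154 CPM. Gimap7 was lower in those B cells, at 15.3 against 90.2 CPM, but not in those NK cells, at 359 against 295 CPM.

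**Figure D5:**
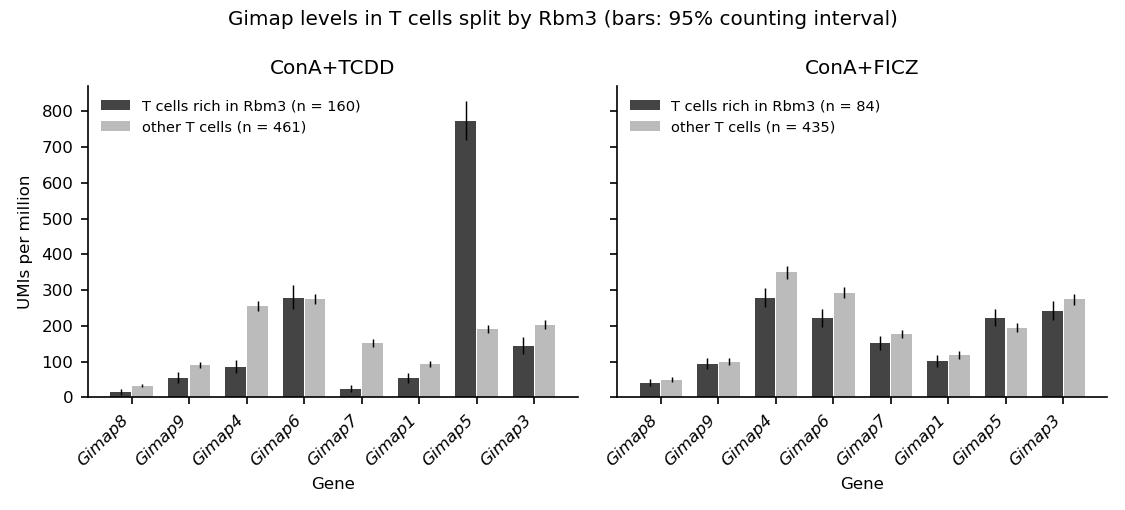
Level of each Gimap gene (CPM, vertical axis) in T cells rich in Rbm3 (dark) and in the other T cells (light) of ConA+TCDD and ConA+FICZ, with lines for the 95% counting interval. In ConA+TCDD the dark bar of Gimap5 stands at 773 CPM against 191 CPM and those of Gimap4 and Gimap7 are lower than the light ones, whereas in ConA+FICZ the Gimap5 bars are at 222 and 195 CPM.

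ConA+FICZ was compared with ConA+Veh in the same way. The summed level was higher in all 3 gates, with log2 ratios of 0.18 (0.14 to 0.22) in T cells, 0.29 (0.19 to 0.39) in NK cells and 0.13 (0.07 to 0.18) in B cells, each less than a 2-fold difference. The T cells of ConA+FICZ also held more RNA of 5 hepatocyte genes, at 83.8 CPM against 11.6 CPM in ConA+Veh. They held less of the haemoglobin genes Hba-a1, Hba-a2, Hbb-bs and Hbb-bt, at 0.329 against 13.6 CPM. The part of either in these ratios was not tested. In T cells 7 of 8 members had ratios above 0, from 0.20 for Gimap9 to 0.51 (0.26 to 0.75) for Gimap8, which was at 33 CPM in ConA+Veh and 46.8 CPM in ConA+FICZ. Gimap6 alone was lower, at 321 and 275 CPM, a ratio of -0.22 (-0.31 to -0.13). In the whole T cell gate none of the members was 2-fold lower or higher, where 1.25% and 0.680% of all genes were. In 3 small T cell subsets 1 member was. Gimap8 was at 26.2 CPM in ConA+Veh and 58.5 CPM in ConA+FICZ in CD4 T cells that were not naive-type (84 and 44 cells), with a log2 ratio of 1.16 (0.40 to 1.94), where 0.879% of all genes were at least 2-fold higher. Gimap5 was at 178 and 374 CPM in gamma delta T cells (25 and 25 cells), with 1.07 (0.51 to 1.64), where 1.65% were. Gimap9 was at 160 and 76.0 CPM in naive-type CD4 T cells (15 and 21 cells), with -1.07 (-2.06 to -0.07). Gimap9 had too few UMIs there to be in the set of genes behind the 2-fold shares. Of the 4 members in that set 0 were at least 2-fold lower in this subset, against 2.68% of all genes. In NK cells Gimap1 was at 138 and 218 CPM, with 0.66 (0.25 to 1.07), Gimap5 at 333 and 507 CPM, with 0.61 (0.34 to 0.87), and Gimap4 at 548 and 770 CPM, with 0.49 (0.28 to 0.70).

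The 2 AhR ligands share the ConA+Veh library as their reference, so they were also set against each other. In T cells ConA+TCDD over ConA+FICZ gave log2 ratios of 0.52 (0.42 to 0.63) for Gimap5, 0.00 (-0.10 to 0.10) for Gimap6 and -0.66 (-0.94 to -0.39) for Gimap8, and the other 5 members lay below 0. In NK cells the ratio of Gimap5 was 0.12 (-0.13 to 0.37).

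The likeness of expression patterns was described over 31 points, each a class of at least 20 cells in 1 library, which share libraries and depth. Gimap3 and Gimap8 followed the sum of the other members most closely, with Pearson's r of 0.85 for both, and Gimap5 least, with 0.35. Of 5707 other genes the 5 most like the summed family were Ppp1r18 (0.93), Grina (0.92), H2-K1 (0.91), Ptpn18 (0.90) and Zfp36l2 (0.90), and the 3 most unlike were Hmgn1 (-0.92), Nap1l1 (-0.86) and Rpl7a (-0.85). H2-K1 encodes a class I histocompatibility protein, and Hmgn1 and Nap1l1 encode chromatin proteins that are abundant in dividing cells. The genes next to the cluster did not share its level. Of the 5 nearest protein-coding genes on each side, the 9 present in the count tables were at most at 29.2 CPM in T cells of any library, the highest being Tmem176b in Naïve. In NK cells the highest was 52.2 CPM, for Tmem176b in Naïve, and in B cells 18.3 CPM, for Lrrc61 in Naïve. In T cells of ConA+Veh Tmem176b, Tmem176a and Lrrc61 were at 11.2, 8.18 and 3.78 CPM, lower than the 29.2, 26.4 and 14.3 CPM of Naïve.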

How the data were processed

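Liver mononuclear cells were profiled cell by cell in droplets with the 10x Genomics 5′ assay. Per the file headers the tables were written by Cell Ranger 3.0.2, and per the labels the build was mm10. The values the authors deposited are raw UMI counts per gene and cell, not normalized, for barcodes kept by the authors' pipeline, at least 500 UMIs each. The members, gene lists and tests were chosen with earlier results of these data known.

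Cells were gated by marker UMIs: T cells with at least 2 UMIs of the 3 Cd3 genes, NK cells with at least 2 and B cells with at least 3 of their markers. T and NK cells had at most 1 UMI of the B list, and B cells 0 of the T list. NK cells had 0 of Cd3d and Cd3e and at most 1 of Cd3g. The NK list was not limited in T or B cells. T, NK and B cells had at most 1 UMI of each list for mononuclear phagocytes, endothelial cells, neutrophils and erythroid cells. Of the marker lists for B cells and for naive-type cells, 1 gene each is not reported here. Ahsp was not among the measured erythroid genes. No doublet caller was run. Instead, leaving out the 5% of cells with most UMIs was an alternative. UMIs were summed per class and library and divided by the class total. Intervals at 95% were exact Poisson for levels, exact binomial (Clopper-Pearson) for shares, and exact conditional binomial for ratios. A UMI is a molecule, but cells of 1 library are not replicates, so no p-value was computed. For shares of cells, each cell was thinned to 1000 UMIs. This left out 21, 20, 15 and 9 T cells in the order of the report, and unthinned shares are in the closing section. Genes with at least 50 UMIs in both libraries together formed the background for 2-fold differences. Likeness used log2(CPM + 10) of genes with at least 500 UMIs. All members were named, with listed genes past 2-fold, the 5 most like and 3 most unlike genes, and the cluster's neighbours. Scripts used scipy 1.17.1 and numpy 2.4.6 under Python 3.11.15, with pandas 2.3.3 and matplotlib 3.10.9, and were tested on simulated data. Promoter windows came from RefSeq, positions from GENCODE. Protein sequences were not used here. Alternatives were stricter gates, gating after thinning, cell filters and 3 other scalings.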

Additional observations from a re-analysis of the deposited data

Results flagged for a closer look

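The direction of some members differed between cell types under the same comparison, with both counting intervals clear of 0. These differences were not tested, since each group was 1 library. For ConA+Veh over Naïve, Gimap4 had a log2 ratio of 0.39 in B cells and -0.69 in T cells, a difference of 1.08, and Gimap9 had 0.74 in B cells and -0.33 in T cells, a difference of 1.07. Gimap7 had 0.57 in NK cells and -0.52 in T cells, a difference of 1.09. Counted as mean UMI per cell, the T cell ratios of Gimap4, Gimap9 and Gimap7 were instead 0.84, 1.20 and 1.01. Beside them were 1.56 and 1.90 for Gimap4 and Gimap9 in B cells and 1.40 for Gimap7 in NK cells. The directions thus did not differ on this scale, where cells with more UMIs count more by construction. For ConA+TCDD over ConA+Veh, the summed level had a ratio of 0.11 in NK cells and -0.10 in B cells, a difference of 0.21 that is small beside the others. Without the Rbm3-rich cells these ratios were 0.057 (-0.047 to 0.161) and -0.076 (-0.153 to 0.001), and both intervals included 0.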

How the results depend on the processing

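No paired analysis was possible because each group was 1 library. Ratios below are log2 of the summed family unless a member is named, and the cause of a difference was not tested. Stricter gates and leaving out low-quality cells kept all 13 summed ratios within their counting intervals. As mean UMI per cell, without correction for depth, ConA+Veh over Naïve turned to 0.57 in T, 0.53 in NK and 0.77 in B cells. Cells with more UMIs count more there by construction. On that scale 7 members in T cells turned too (Gimap1 0.25, Gimap3 0.40, Gimap4 0.84, Gimap5 1.14, Gimap6 0.18, Gimap7 1.01, Gimap9 1.20), as did Gimap3 at 0.25 and Gimap8 at 0.032 in NK cells and Gimap1 at 0.52, Gimap3 at 0.85, Gimap6 at 0.31 and Gimap8 at 0.018 in B cells. It gave -0.14 for ConA+TCDD over ConA+Veh in T cells, 0.35 and 0.17 for ConA+FICZ over ConA+Veh in T and NK cells, and for naive-type over other CD8 T cells -0.67 in Naïve, -0.48 with vehicle, -0.62 with TCDD and -0.41 with FICZ.

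Gating after thinning to 1000 UMIs gave -0.16 in NK cells for ConA+Veh over Naïve, -0.011 in B cells for ConA+TCDD over ConA+Veh, 0.23 in T cells for ConA+FICZ over ConA+Veh, and 0.18 in ConA+Veh and -0.39 in ConA+FICZ for naive-type over other CD8 T cells. Averaging UMIs per 10000 over cells gave -0.88, -0.12 and -0.29 in T, NK and B cells for ConA+Veh over Naïve, -0.071 and -0.021 in T and B cells for TCDD over vehicle, and -0.36 in Naïve and 0.020 in ConA+TCDD for the CD8 ratio. Without the 5% of cells with most UMIs the T cell ratio of ConA+Veh over Naïve was -1.01 and the CD8 ratio in Naïve -0.47, and without ribosomal protein and mitochondrial genes the B cell ratio was -0.30 and the CD8 ratio in Naïve 0.14.

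Gimap5 in T cells, ConA+TCDD over ConA+Veh, ranged from 0.16 to 1.07 over all settings, and was 0.33 when gated after thinning. In NK cells it ranged from 0.45 to 0.84. Leaving out cells without Cd52 or rich in Rbm3 was chosen after seeing the data. Without Cd52-negative cells Gimap5 in T cells was 0.52, and Gimap7 turned from -0.14 to 0.0034. Gimap7 also turned to 0.087 without Rbm3-rich cells and to 0.018 when gated after thinning, and without Rbm3-rich cells ConA+FICZ over ConA+Veh in T cells was 0.23. The share of T, NK and B cells with a Gimap UMI depends on depth. Thinned to 500 UMIs it was 67.3% in Naïve and 51.9% in ConA+Veh T cells, and not thinned 98.1% and 97.2%. Depth limits the small classes most, and with no replicate the spread between animals is unknown.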
